A study of Homo sapiens with 6 samples.

Results

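Clade B serpins are a branch of the serpin superfamily of protease inhibitors, and the transcripts of 10 of their genes were followed across 6 poly(A) RNA libraries of KYSE70, an established cell line of human esophageal squamous carcinoma. The members were the rows of the deposited table named SERPINB1, SERPINB2, SERPINB3, SERPINB4, SERPINB5, SERPINB6, SERPINB7, SERPINB8, SERPINB9 or SERPINB13, and all 10 were found among 48644 gene rows. The cells stably carried the vector pLKO-Tet-On-shSOX2 or pLKO-Tet-On-shTP63, which express a hairpin against SOX2 or TP63 once doxycycline is present. SOX2 and TP63 are transcription factors that squamous and basal epithelial cells depend on. Each line was sequenced once uninduced (day 0, no doxycycline) and as 2 induced libraries (day 4, doxycycline at 50 ng/ml throughout). The libraries carry the numbers 1 and 2 in their titles, taken here as replicates; the uninduced library of each line carries the number 2, and the numbers could also stand for different hairpins. Induction of a hairpin, exposure to doxycycline and days in culture go together in this design and cannot be told apart, and in bulk RNA fewer cells with a transcript cannot be told apart from less of it per cell.

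A typical inhibitory serpin presents a flexible reactive loop as bait, is cut by its target protease and then folds so that the protease stays trapped in a covalent complex. Clade B members mostly lack a classical secretion signal and act largely inside cells, where they limit the damage done by lysosomal, granule or trypsin-like proteases. Several are typical products of stratified squamous epithelium, among them the squamous cell carcinoma antigens SERPINB3 and SERPINB4, maspin (SERPINB5) and headpin (SERPINB13). Human clade B genes lie in separate clusters on chromosomes 18 and 6, with 7 of the 10 members on the first and 3 on the second.

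Promoter sequences from RefSeq (GRCh38.p14) matched all 10 members, with 15 entries in all, and 4 are shown as the 250 bases before the start site. The files were made on hg19, so these serve only as sequence. SERPINB3 (chr18:63661894-63662143, minus strand) and SERPINB4 (chr18:63644257-63644506, minus strand) are shown because they are near-identical copies. Capitals mark the 3 positions at which they differ, which leaves them 98.8% identical.
SERPINB3: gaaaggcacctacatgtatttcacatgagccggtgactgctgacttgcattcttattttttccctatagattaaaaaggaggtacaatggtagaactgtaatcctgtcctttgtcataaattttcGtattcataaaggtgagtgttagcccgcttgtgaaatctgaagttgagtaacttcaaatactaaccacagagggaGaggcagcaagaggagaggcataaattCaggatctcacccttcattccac
SERPINB4: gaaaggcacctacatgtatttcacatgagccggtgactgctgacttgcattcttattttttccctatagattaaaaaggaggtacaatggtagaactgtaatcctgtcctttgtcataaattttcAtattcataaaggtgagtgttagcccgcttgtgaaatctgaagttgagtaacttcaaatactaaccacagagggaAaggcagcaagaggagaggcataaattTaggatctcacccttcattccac
SERPINB5 (chr18:63476708-63476957, plus strand) and SERPINB13 (chr18:63587093-63587342, plus strand) are shown because they are the only members above the level at which genes were tested. Both strands were searched for exact matches to the AP-1 site TGACTCA, the SOX core AACAAT and the decamer bound by p53 family proteins. Capitals mark any match, and a site with a mismatch was not counted.
SERPINB5: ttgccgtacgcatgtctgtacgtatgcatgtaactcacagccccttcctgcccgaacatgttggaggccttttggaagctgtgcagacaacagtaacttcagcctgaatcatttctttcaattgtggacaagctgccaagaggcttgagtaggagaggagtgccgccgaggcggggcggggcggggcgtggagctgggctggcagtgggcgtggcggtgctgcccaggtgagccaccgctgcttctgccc
SERPINB13: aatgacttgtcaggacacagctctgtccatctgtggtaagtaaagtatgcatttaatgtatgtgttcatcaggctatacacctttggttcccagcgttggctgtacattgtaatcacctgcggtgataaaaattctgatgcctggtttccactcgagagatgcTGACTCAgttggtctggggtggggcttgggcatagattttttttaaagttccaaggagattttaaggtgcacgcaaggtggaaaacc
The SERPINB13 window held 1 AP-1 site, with its first base at position -87 from the start site. The SERPINB5 window held no exact match to any of the 3 motifs, which leaves sites with a mismatch unexamined. The AP-1 site occurred in 4 of the 15 member promoters, belonging to 3 genes (SERPINB7, SERPINB8 and SERPINB13), against 4.16% of 27305 promoters of the same length, 1 per gene symbol. The SOX core occurred in 0 of 15 against 9.19% of all promoters, and the decamer bound by p53 family proteins in 0 of 15 against 5.53%. For all 3 motifs the members count every entry, several for SERPINB6 and SERPINB7, while the background counts the first entry of each symbol. The shares are thus not counted alike, and the first SERPINB7 entry held no AP-1 site. A match is a string of letters only, and no binding was measured.

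Values are the authors' deposited ones, read as log2(RPKM + 1), where RPKM is reads scaled to gene length and library size. Base 2 is assumed, and every RPKM below was computed from a value under that reading. The table holds no counts, so the read depth behind a value is unknown. The uninduced shTP63 library stood apart: it had 16167 genes above 0, against 21530 to 23509 in the others, and its smallest value above 0 was 0.14, against at most 0.015 elsewhere. A gene at 0 there may therefore have a low value that the table does not resolve. The 9 squamous markers checked all had a mean RPKM of at least 1, with KRT5, a keratin of basal cells, between 8.39 and 11.01, while KRT14, its usual partner, was at 0.66 to 2.70. None of the 6 leukocyte markers reached that mean, and PTPRC, the pan-leukocyte antigen CD45, was at 0.04 or less in every library. CD14 was the highest of the 6, at 0.47 in induced shSOX2 replicate 1. Of 5 fibroblast markers COL1A1 alone reached that mean, at values of 1.49 to 2.68. No erythroid, endothelial, columnar gut or hepatocyte marker in the table did, the highest value being 1.03 for HBA1 in uninduced shTP63 cells. SOX2 went from 6.25 to 4.67 and 5.65 in its own line, and TP63 from 3.99 to 2.11 and 2.26 in its own line. Neither difference passed limma over all genes (adjusted p = 0.469 and 0.131). Uninduced shTP63 cells had SOX2 at 5.69, close to the 5.65 of induced shSOX2 replicate 2. Uninduced shSOX2 cells had TP63 at 3.61, above both induced shTP63 libraries.

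Most clade B serpins were low in this squamous line, and 8 of the 10 had a mean RPKM below 1. Of the 10 members, 4 were above 0 in every library (SERPINB5, SERPINB13, SERPINB8 and SERPINB6) and 6 were at 0 in at least 1 library. By mean RPKM over the 6 libraries the order was SERPINB5 at 1.83, SERPINB13 at 1.75, SERPINB8 at 0.594, SERPINB6 at 0.395, SERPINB2 at 0.0909 and SERPINB7 at 0.0226, with SERPINB3, SERPINB1, SERPINB9 and SERPINB4 below 0.01. SERPINB5 ranked 8408th and SERPINB13 8960th of the 48644 rows by mean log2 value. The leading pair exchanged places in the shSOX2 line, where SERPINB13 RPKM was 0.745 of SERPINB5 RPKM in uninduced cells and 1.89 and 3.05 times it in the induced ones. In the shTP63 line SERPINB5 was first in all 3 libraries, with SERPINB13 at 0.0987 of it in uninduced cells, behind SERPINB8 and SERPINB6, and at 0.739 and 0.475 of it in the induced ones. The order of SERPINB5 and SERPINB13, and that of SERPINB8 and SERPINB6, was not the same in every library. Levels of different members were not tested against each other. SERPINB5 and SERPINB13 alone reached a mean RPKM of 1 over the 6 libraries, most of them induced. In the uninduced shSOX2 and shTP63 libraries SERPINB13 had an RPKM of 1.22 and 0.168, and SERPINB8 one of 0.553 and 1.55. Which members reached that mean thus depended on the induced libraries as well. Few of the members grouped here as squamous epithelial genes thus reached that mean in these libraries. Levels in 1 cell line do not show which of them other squamous cells express.

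**Figure D1:**
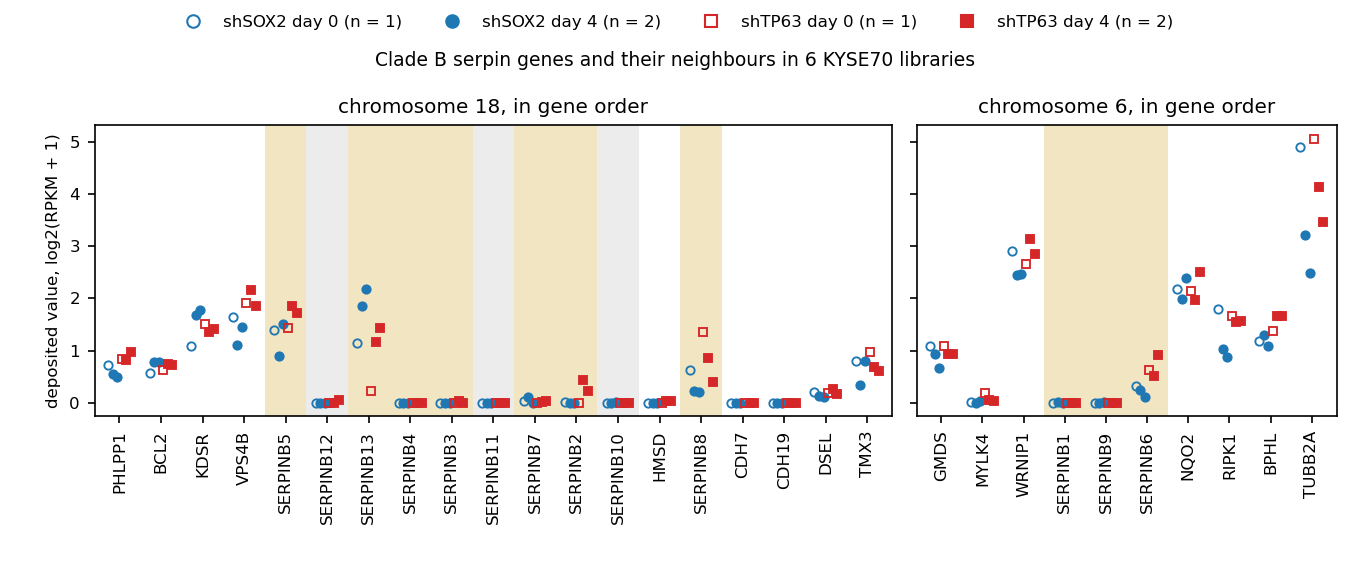
Deposited value, log2(RPKM + 1), in each of 6 libraries for the clade B serpin genes and the protein-coding genes beside them, in chromosome order. Open symbols are uninduced libraries and filled symbols induced ones, circles the shSOX2 line and squares the shTP63 line; yellow bands mark the 10 members and grey bands the other clade B serpins. SERPINB5, SERPINB13 and SERPINB8 stand above the other members on chromosome 18, and SERPINB6 above SERPINB1 and SERPINB9 on chromosome 6.

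Along chromosome 18 the members with signal were not contiguous. In RefSeq order the cluster runs SERPINB5, SERPINB12, SERPINB13, SERPINB4, SERPINB3, SERPINB11, SERPINB7, SERPINB2, SERPINB10 and, after HMSD, SERPINB8. SERPINB5 had a median of 1.47 over the 6 libraries, close to the genes before it, VPS4B at 1.74 and KDSR at 1.47. SERPINB12, between SERPINB5 and SERPINB13, was at 0 in 5 libraries and at 0.06 in the other, SERPINB11 was at 0 in all 6, and SERPINB10 did not exceed 0.014. On chromosome 6 SERPINB1 and SERPINB9 had medians of 0 and 0.00093 although WRNIP1 on one side of the trio had a median of 2.76 and NQO2 on the other one of 2.15. SERPINB6, next to NQO2, had a median of 0.42. These neighbours were chosen after the members' values were seen.

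The squamous cell carcinoma antigens were all but absent from the table. SERPINB3, an inhibitor of papain-like cysteine proteases such as cathepsin L, was at 0 in 5 libraries and at 0.03 in induced shTP63 replicate 2. SERPINB4, which inhibits chymotrypsin-like proteases such as cathepsin G, was listed at 0 in all 6. The longest GENCODE v29 transcripts of the 2 genes share 23.9% (SERPINB3) and 24.3% (SERPINB4) of their 50-base windows, and the counting of reads shared by copies is not described in the labels. The part of shared reads in the SERPINB3 and SERPINB4 values was not tested.

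The members best known from leukocytes were at the floor as well. SERPINB1, an inhibitor of neutrophil elastase, was at 0.02 in induced shSOX2 replicate 2 and at 0 in the other 5 libraries. SERPINB9, which protects cells from granzyme B, was at 0.0019 in uninduced shSOX2 cells, 0.010 and 0.0023 in the induced ones and 0 in all 3 shTP63 libraries. The 20 housekeeping genes checked were all above 0 in every library. SERPINB7 (megsin), whose loss causes a palmoplantar keratosis, was at 0.03 in uninduced shSOX2 cells, 0 and 0.11 in the induced ones, 0 in uninduced shTP63 cells and 0.03 and 0.02 in the induced ones. The highest value of each of 5 members, SERPINB1, SERPINB3, SERPINB4, SERPINB7 and SERPINB9, lay below the smallest value that the uninduced shTP63 library holds above 0, so no comparison with that library can be made for them.

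SERPINB13 stood higher after induction of either hairpin, though not past the test. Headpin, its product, inhibits the cysteine proteases cathepsin L and cathepsin K. It was at 1.15 in uninduced shSOX2 cells and then at 2.17 and 1.86 in induced replicates 1 and 2. It was at 0.22 in uninduced shTP63 cells and then at 1.43 and 1.17 in induced replicates 1 and 2. The 0.22 lies near the smallest value above 0 of that uninduced library, 0.14. All 4 induced libraries lay above both uninduced ones, but induced shTP63 replicate 2, at 1.17, exceeded the uninduced shSOX2 library, at 1.15, by less than either induced pair differed within itself. As RPKM the induced libraries were 2.88 and 2.16 times day 0 in the shSOX2 line and 10.2 and 7.45 times day 0 in the shTP63 line, the latter on a day 0 level of only 0.168.

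The log2 difference, day 4 minus day 0, was 0.87 ± 0.30 (limma SE, day 4 n = 2, day 0 n = 1) in the shSOX2 line, with a limma adjusted p of 0.431. In the shTP63 line it was 1.08 ± 0.30 (limma adjusted p = 0.192), and averaged over both lines it was 0.97 ± 0.21, higher in 4 of 4 induced libraries (limma adjusted p = 0.092). Among 10536 tested genes its unadjusted p ranked 534th, 440th and 250th in these 3 comparisons. SERPINB13 passed the filter on mean RPKM with the help of its induced libraries, as its uninduced RPKM was 1.22 (shSOX2) and 0.168 (shTP63). Its entry into these tests was thus not independent of the day 4 values. SERPINB8, lower at day 4 than at day 0 in each line, was left out by the same filter. The responses of the 2 lines differed by 0.21 ± 0.43 (limma adjusted p = 0.997), with a 95% interval from -0.78 to 1.21. That value depends on the + 1 of the scale: it was 1.29 ± 0.69 with a pseudocount of 0.1 and -0.049 ± 0.17 with 5 (limma adjusted p = 0.99 and 0.994), and the shTP63 difference was 2.54 with 0.1 and 0.32 with 5. With the day 0 library of the other line as the control, the shTP63 difference was 0.15 in place of 1.08 and the shSOX2 difference 1.79 in place of 0.87, since the uninduced libraries themselves lay 0.93 apart. The size of the SERPINB13 difference thus depends on single uninduced libraries, and in the shTP63 line on the one that stands apart.

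Between the induced lines SERPINB13 stood lower in the TP63 hairpin pair, at a log2 difference of -0.71 ± 0.25 (limma adjusted p = 0.159), with no overlap between the pairs. This too did not pass, and 26.6% of tested genes were lower without overlap in that comparison and 30.5% higher. Among tested genes 11.5% had all 4 induced libraries above both uninduced ones and 14.2% below, and 2.54% were at least 1.5-fold above day 0 in both induced libraries of both lines, as SERPINB13 was. These folds, and those of the next sentences, are of RPKM + 1 and so understate the change of low genes. At 2-fold of RPKM + 1, 0 of the 2 tested members passed in both induced libraries of a line in either direction. By this rule on RPKM + 1, 2.48% of tested genes were higher in the shSOX2 line and 0.987% lower, and in the shTP63 line 3.05% and 2.82%. SERPINB13 was past 2-fold as RPKM in all 4, but the share of tested genes past 2-fold as RPKM was not counted. The shares for RPKM + 1 are no background for it.

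**Figure D2:**
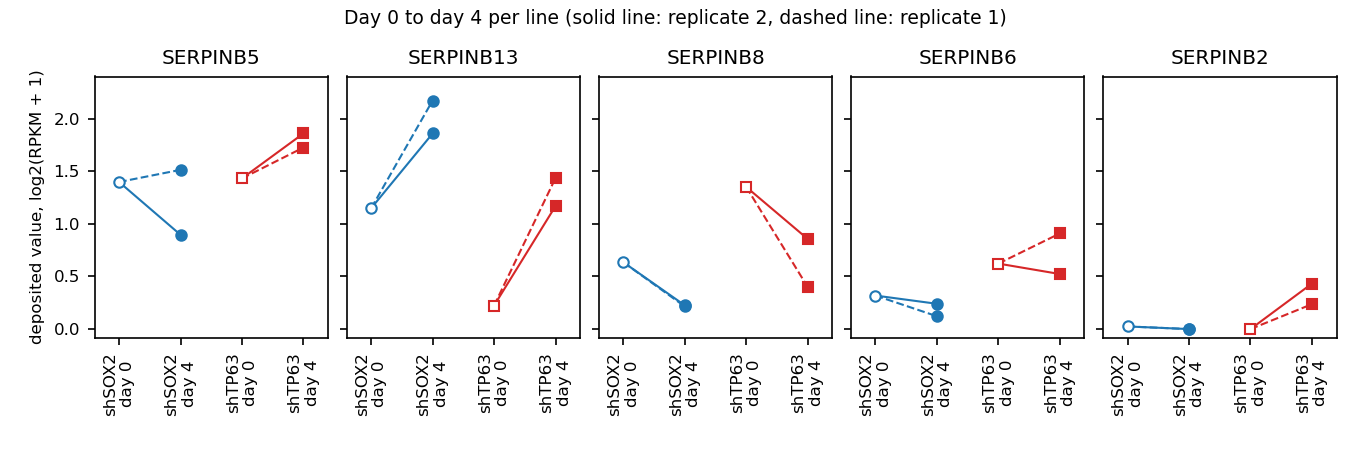
Deposited value, log2(RPKM + 1), of 5 members at day 0 (open) and day 4 (filled) in the shSOX2 line (blue) and the shTP63 line (red); lines join each induced library to the uninduced library of its line. SERPINB13 is above its day 0 value in all 4 induced libraries and SERPINB8 below it in all 4, while SERPINB5 and SERPINB6 do not move one way.

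SERPINB5 encodes maspin, a serpin that does not inhibit proteases and is widely used as a marker of squamous and myoepithelial cells. It was at 1.40 in uninduced shSOX2 cells and then at 1.51 and 0.90 in induced replicates 1 and 2. It was at 1.43 in uninduced shTP63 cells and then at 1.72 and 1.86 in induced replicates 1 and 2. The induced shSOX2 libraries thus lay on either side of their day 0, and both induced shTP63 libraries lay above theirs. The log2 difference was -0.19 ± 0.34 in the shSOX2 line (limma adjusted p = 0.862) and 0.36 ± 0.34 in the shTP63 line (limma adjusted p = 0.668). The 95% intervals ran from -0.99 to 0.60 and from -0.43 to 1.15, so differences of that size were not resolvable with these libraries. Without induced shSOX2 replicate 2 the shSOX2 difference turned to 0.12. Between the induced lines SERPINB5 was higher with the TP63 hairpin, by 0.59 ± 0.28 (limma adjusted p = 0.252), without overlap, in the direction that 30.5% of tested genes shared.

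Limma called neither of the 2 tested members in any of these comparisons. It called 0 of 10536 genes in the shSOX2 line (0% in each direction, 1094 at an unadjusted p under 0.05). In the shTP63 line it called 0.00949% in each direction, for the average of both lines 0.0285% in each, and between the induced lines 0.247% higher and 0.513% lower. For the difference of the responses it called 0% (479 at an unadjusted p under 0.05). Nothing in the labels ties the libraries to separate cultures, and the p-values therefore cover the spread among these libraries alone, possibly of technical origin.

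SERPINB8, an inhibitor of trypsin-like proteases and of furin, was below the mean RPKM of 1 needed for the test. It was at 0.63 in uninduced shSOX2 cells and then at 0.21 and 0.23 in induced replicates 1 and 2. It was at 1.35 in uninduced shTP63 cells and then at 0.40 and 0.86 in induced replicates 1 and 2. Every induced library lay below day 0 of its own line, by 0.42, 0.41, 0.95 and 0.49, yet induced shTP63 replicate 2 lay above the uninduced shSOX2 library. Each day 4 library lay below its own day 0 in 7.84% of all rows and in 23% of tested genes, and the reverse, as for SERPINB13, held in 19.4% of tested genes. As RPKM the induced libraries held 0.29 and 0.306 of day 0 in the shSOX2 line and 0.206 and 0.523 in the shTP63 line. With no filter on low values SERPINB8 could be tested, and its log2 difference averaged over both lines was -0.57 ± 0.18 (limma adjusted p = 0.518). That fit includes many rows at 0 without variance, so its SE and p-values are only rough, here and for SERPINB6 and SERPINB2 below.

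SERPINB6, a widely expressed inhibitor of cathepsin G and trypsin-like proteases, was at 0.32 in uninduced shSOX2 cells and then at 0.12 and 0.24 in induced replicates 1 and 2. It was at 0.62 in uninduced shTP63 cells and then at 0.91 and 0.52 in induced replicates 1 and 2. The induced shTP63 pair lay on either side of its day 0, and both induced shSOX2 libraries lay below theirs. With no filter its log2 difference between the induced lines was 0.53 ± 0.18 (limma adjusted p = 0.714).

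SERPINB2, also called plasminogen activator inhibitor 2, had its highest values with the TP63 hairpin induced. It was at 0.24 and 0.43 in induced shTP63 replicates 1 and 2, at 0 in the uninduced shTP63 library, at 0.02 in uninduced shSOX2 cells and then at 0 in both induced shSOX2 libraries. Without overlap the induced shTP63 pair was thus the highest, and both of its values exceeded the smallest value above 0 of the uninduced shTP63 library. With no filter the log2 difference between the induced lines was 0.33 ± 0.10 (limma adjusted p = 0.655) and that against day 0 in the shTP63 line 0.33 ± 0.12 (limma adjusted p = 0.79). Of all rows in the table, 12.7% were higher in both induced shTP63 libraries without overlap. Rows at 0 in every library cannot pass this rule, and among tested genes 30.5% were higher and 26.6% lower. By that rule 4 members were higher (SERPINB2, SERPINB5, SERPINB6 and SERPINB8) and 2 lower (SERPINB9 and SERPINB13), against 11.5% of all rows lower. For SERPINB9 this rests on 0.010 and 0.0023 against 0, while the smallest values above 0 in the induced shTP63 libraries were 0.015 and 0.0067, so it shows no resolvable difference.

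Summed over the 10 members, RPKM was 3.69 in uninduced shSOX2 cells and 5.62 and 3.93 in induced replicates 1 and 2. It was 3.95 in uninduced shTP63 cells and 5.41 and 5.50 in induced replicates 1 and 2. SERPINB5 and SERPINB13 together made 77.2% of the sum in uninduced shSOX2 cells and 95.4% and 88.7% in its induced libraries. In the shTP63 line they made 47.2% before induction, where SERPINB8 held most of the rest, and 74.1% and 70.4% after it.

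Lysosomal and serine proteases, a list of targets of clade B serpins and their close relatives, summed to 64.2 to 175 RPKM per library, against 3.69 to 5.62 for the 10 serpins. CTSL2 alone made 141 of the 175, in uninduced shSOX2 cells. The 7 cystatins, protease inhibitors of another family, summed to 101 to 217. These are RNA sums over lists of unlike length and do not show a balance of proteins. Of 20 genes of the protease list in the table, 6 were tested: CTSL1 (cathepsin L), CTSL2 (cathepsin V), CTSH and CTSB (cathepsins H and B), the kallikrein gene KLK8 and ST14 (matriptase). Limma called 0 of the 6 in either line. Their median log2 difference was 1.15 in the shSOX2 line, with 5 of 6 positive, and 0.20 in the shTP63 line, with 4 of 6 positive, against medians of -0.05 and 0.00039 over all tested genes. CTSL2, the most abundant of the 6 in uninduced shSOX2 cells, went the other way: it was at 7.15 there and 4.56 and 4.99 in the induced libraries, and at 5.00 in uninduced shTP63 cells and 3.11 and 3.45 in the induced ones. Its log2 differences were -2.38 ± 0.37 and -1.72 ± 0.37 (limma adjusted p = 0.294 and 0.137). CTSH differed by 1.16 ± 0.53 in the shSOX2 line and -1.99 ± 0.53 in the shTP63 line (limma adjusted p = 0.50 and 0.178). CTSL1, a target of headpin, was at 2.39 in uninduced shSOX2 cells and 3.36 and 3.28 in the induced ones, and at 1.97 in uninduced shTP63 cells and 3.06 and 2.34 in the induced ones. Both induced values of each line lay above day 0 of that line, with log2 differences of 0.93 ± 0.38 and 0.73 ± 0.38 (limma adjusted p = 0.465 and 0.423). KLK8, a serine protease of differentiating keratinocytes, differed by 1.22 ± 0.46 in the shSOX2 line and 2.15 ± 0.46 in the shTP63 line (limma adjusted p = 0.444 and 0.137). PLAU, the urokinase gene whose product SERPINB2 inhibits, did not exceed 0.07 in any library, and CTSK, the other headpin target, did not exceed 0.56.

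**Figure D3:**
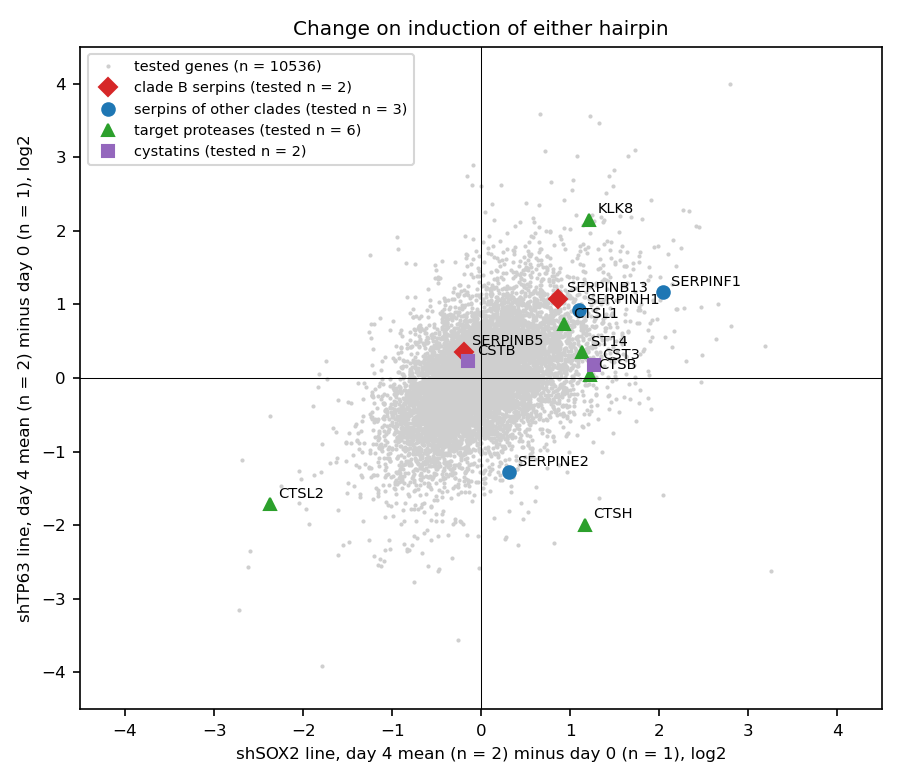
Log2 difference, day 4 mean (n = 2) minus day 0 (n = 1), in the shSOX2 line (horizontal) and the shTP63 line (vertical) for the 10536 tested genes (grey) and for tested clade B serpins, serpins of other clades, target proteases and cystatins. SERPINB13 lies at 0.87 and 1.08 beside CTSL1 and SERPINH1, and SERPINB5 lies near the middle of the cloud.

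Serpins of other clades were present in part. Of 12 such genes 3 were tested, and limma called 0 of them in either line. SERPINH1, the collagen chaperone of the endoplasmic reticulum, lay at 4.22 to 6.50, far above any clade B member. The 3 tested genes had median log2 differences of 1.09 in the shSOX2 line and 0.92 in the shTP63 line, against -0.05 and 0.00039 over all tested genes. With 3 genes these medians are the values of SERPINH1 itself. SERPINF1 differed by 2.04 ± 0.51 in the shSOX2 line and 1.16 ± 0.51 in the shTP63 line. SERPINE2 (protease nexin 1), of those 3, went the other way in the shTP63 line, by -1.28 ± 0.34 (limma adjusted p = 0.179), with 0.31 ± 0.34 in the shSOX2 line (limma adjusted p = 0.765). Of the 7 cystatins, inhibitors of cysteine proteases from another protein family, CST3 and CSTB were tested, at 4.05 to 5.64 and 6.18 to 7.59, and 0 were called. Of the 7 plasminogen activation genes 4 were tested, with median log2 differences of -0.05 and -0.07 and 0 called.

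By the smallest root mean square difference of centred values over the 6 libraries, the tested genes most like SERPINB13 were CLU (clusterin) at 0.0884, CHD6 at 0.131 and RP11-571M6.7 at 0.135. CLU, a secreted chaperone, lay far higher, at 5.92 in uninduced shSOX2 cells and 7.08 and 6.53 in the induced ones, and at 4.91 in uninduced shTP63 cells and 6.15 and 5.81 in the induced ones. Its libraries had the same order as those of SERPINB13 except that induced shTP63 replicate 2 lay below the uninduced shSOX2 library. The genes most like SERPINB5 were KBTBD7 at 0.0394, TRIM26 at 0.0601 and INTS8 at 0.0612. All 3 had their lowest value in induced shSOX2 replicate 2, as SERPINB5 did. With 6 libraries and 10536 genes close matches occur readily, and these are descriptions only.

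**Figure D4:**
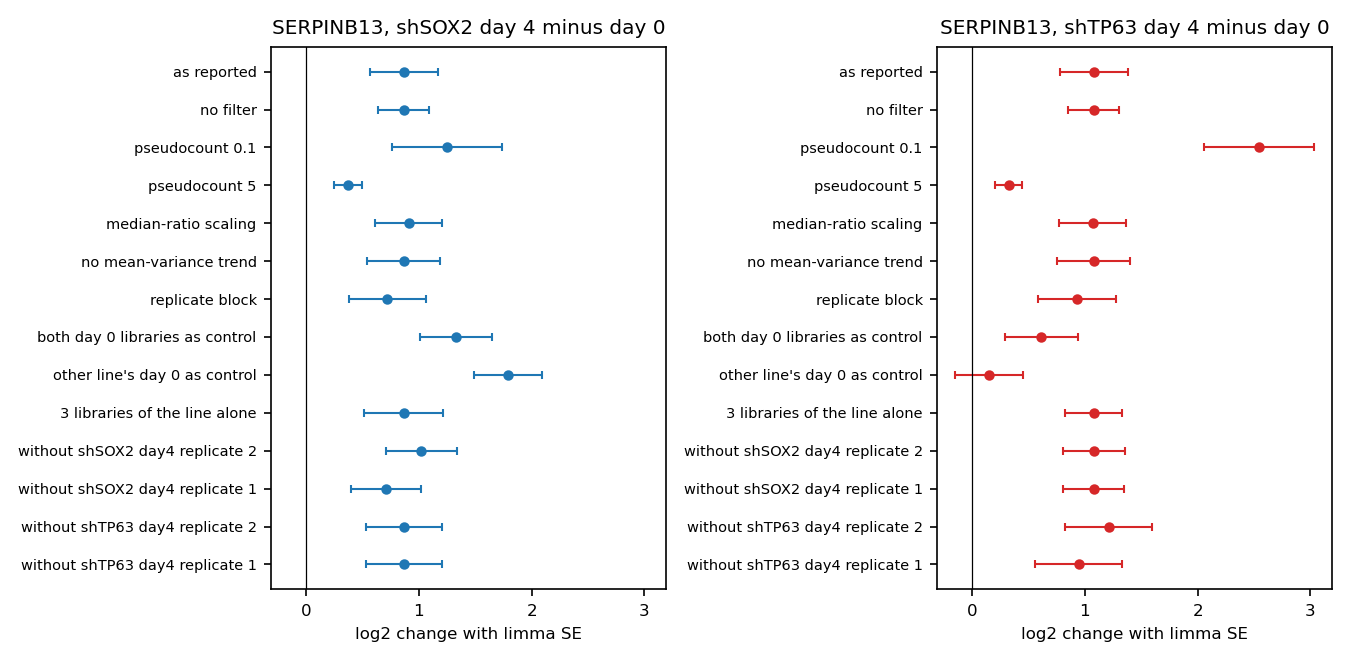
SERPINB13 log2 difference, day 4 minus day 0, with its limma SE as bars, in the shSOX2 line (left) and the shTP63 line (right) as reported and under each alternative. Every value is above 0, which many of the alternatives could not have changed. The largest moves come from the pseudocount and from the choice of the day 0 library, where the shTP63 value reaches 0.15.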

How the data were processed

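Poly(A) RNA of 6 KYSE70 libraries was isolated on beads, fragmented, reverse transcribed with random primers and sequenced on an Illumina HiSeq instrument, per the labels' protocols. No strand-specific step is stated, so overlapping antisense genes may share reads. The deposited table is named RPKM, but its values were read as log2 values, log2(RPKM + 1), quantile-normalized by the authors: all 6 libraries share a maximum of 13.36, and 100% of values above 0 are multiples of 1/14000 within 0.01 of a step. Build hg19 is named in the submitters' processing notes; the labels name no aligner or annotation.

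Genes with a mean RPKM of at least 1 were kept (10536 of 48644). The design assumed RPKM, so the deposited log2 values were tested without a further log. limma 3.58.1 in R 4.3.3 was fitted to 4 group means (2 residual degrees of freedom; eBayes with a trend), two-sided, with Benjamini-Hochberg adjustment over all tested genes and a threshold of 0.05; each single uninduced library was taken to vary as the induced pairs do. The script was tested on simulated data. All members, the listed genes and the 3 genes most like each tested member were to be named. One listed gene is not reported here and was left out of its lists. Members and lists were chosen with earlier results of these data known. Depth is unknown, so no counting interval is given.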

Additional observations from a re-analysis of the deposited data

Results flagged for a closer look

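SERPINB2 drew attention because its libraries moved opposite ways in the 2 lines. Both induced shSOX2 libraries were at 0, below the 0.02 of their day 0, and both induced shTP63 libraries, at 0.24 and 0.43, were above the 0 of theirs. The responses differed by 0.36 on the log2 scale (shTP63 minus shSOX2). SERPINB2 was below the level required for the test, so the difference was not tested there; with no filter on low values it did not pass (0.36 ± 0.17, limma adjusted p = 1). The shSOX2 side of this rests on a single value of 0.02. On the shTP63 side the smallest value above 0 in the day 0 library was 0.14, so its 0 may stand for a low value. Only the members were checked for opposite moves, and the share of all rows that moved so was not counted.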

How the results depend on the processing

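For the members no alternative gave a call. SERPINB13 kept its direction in 13 of 13 settings in each line, though many of them could not have turned it. Settings that changed only the filter, the variance trend or the libraries of the other line left the difference as reported. Every induced library lay above both uninduced ones, so leaving 1 out, exchanging the day 0 libraries or changing the pseudocount could not turn it either. The difference ran from 0.37 to 1.79 in the shSOX2 line (limma adjusted p from 0.0854 to 0.675). In the shTP63 line it ran from 0.15 to 2.54 (limma adjusted p from 0.0932 to 0.831). The extremes came from the pseudocounts of 0.1 and 5 and from the other line's day 0 library. The SERPINB13 difference of responses turned to -0.049 with a pseudocount of 5 and was 1.29 with 0.1, against 0.21 as reported. Leaving out 1 induced library moved SERPINB5 from -0.50 to 0.12 in the shSOX2 line (0.12 without replicate 2) and from -0.071 to 0.24 for the average of both lines (-0.071 without shSOX2 replicate 1), where the replicate block gave -0.037. The cause of these moves was not tested. Unknown depth limits all members below an RPKM of 1.

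Genes called numbered 0 (shSOX2 line), 2 (shTP63 line), 0 for the difference of responses, 80 between the induced lines and 6 for the average. With no filter, where many rows at 0 have no variance, they numbered 1090, 37, 1193, 25 and 1232. Keeping a mean RPKM of 5 or more they were 1 in the shTP63 line, 44 between induced lines and 1 for the average; with a pseudocount of 0.1 they were 5, 46 and 90; with a pseudocount of 5 they were 1 in the shSOX2 line and 30 between induced lines. With both day 0 libraries as the control 2 and 291 genes were called in the shSOX2 and shTP63 lines, with the other line's day 0 library 4 and 49, and with the 3 libraries of a line alone 11 and 0. Under the replicate block 0 were called in the shTP63 line, 18 between induced lines and 0 for the average. Same-numbered induced libraries deviated with a correlation of -0.07, so the numbers were not taken to pair them. Leaving out 1 induced library gave 0 to 11 calls in the shSOX2 line, 0 to 80 in the shTP63 line, 0 to 5 for the difference, 0 to 324 between induced lines and 0 to 263 for the average.

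Genes at least 2-fold from day 0 in RPKM + 1 (not in RPKM) in both induced libraries numbered 261 higher and 104 lower in the shSOX2 line and 321 and 297 in the shTP63 line. At 1.5-fold they numbered 827, 616, 989 and 966. Keeping a mean RPKM of 5 or more they were 66 lower in the shSOX2 line and 191 higher and 185 lower in the shTP63 line, and with the other line's day 0 library 556 and 322 in the shSOX2 line. Leaving out 1 induced library gave 450 to 702 higher and 298 to 402 lower in the shSOX2 line, and 635 to 659 higher and 555 to 656 lower in the shTP63 line. Genes with all induced libraries above both uninduced ones numbered 1207, and 1501 below; these were 2476 and 2367 with no filter, 550 and 778 for a mean RPKM of 5 or more, and, as an alternative added once the data had been seen, 2080 and 2399 without the uninduced shTP63 library. Between the induced lines 3215 were higher and 2802 lower without overlap, 6163 and 5576 with no filter, and 1501 and 1271 for a mean RPKM of 5 or more.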
